A study of Homo sapiens with 9 samples.

Results

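The heat shock response was examined through 10 genes taken by name, as a check on stress outside the endoplasmic reticulum (ER) when the zinc transporter ZIP7 is lost. The genes were HSF1, HSPA1A, HSPA1B, HSPA8, HSPH1, HSP90AA1, DNAJB1, HSPB1, BAG3 and HSPD1, and they are 10 of the 58395 Ensembl identifiers counted. All 10 were found once and passed the low-count filter, which kept 16761 genes. Most of them act in the cytosol or the nucleus, but HSPD1 encodes a chaperonin of the mitochondrial matrix, so the set is not purely cytosolic. RNA was taken from MDA-MB-231, an established triple-negative breast cancer line with mesenchymal traits, 96 h after siRNA transfection. Cells received siNC, a non-targeting siRNA, or siZIP7_1 or siZIP7_2, a pair of siRNAs against SLC39A7, the gene for ZIP7. Each siRNA is represented by 3 libraries, which makes 9. All cells were grown in DMEM with serum and carried no other stated treatment or allele. The labels number the libraries but name no separate cultures, so p-values measure the spread between these libraries, which may be technical. No heat-treated or untransfected culture was analysed here.

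Heat shock proteins are molecular chaperones that bind unfolded chains and help them fold, dissolve or be degraded. HSF1 is the transcription factor of the response. In unstressed cells it is held inactive with chaperones, and when unfolded protein draws these away it forms trimers, binds promoters at heat shock elements and raises chaperone transcription. HSF1 is controlled mainly by its assembly and modification, so its own mRNA level is not a measure of its activity. The unfolded protein response, by contrast, senses misfolding inside the ER and acts through its own sensors and its own chaperones.

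The heat shock element is built from alternating GAA and TTC units that lie 2 letters apart. It was searched in RefSeq promoter windows of GRCh38.p14, which run from 250 bases before to 50 bases after a start site, as GAANNTTC and TTCNNGAA for 2 units and as GAANNTTCNNGAA and TTCNNGAANNTTC for 3. The patterns of 2 units are their own reverse complements and those of 3 units are each other's, so both strands were covered, and a longer run also contains the shorter patterns. Of the 9 members with a window, 7 held a run of at least 2 units, against 16.2% of 27305 genes. A run of at least 3 units stood in 3 of the 9, against 0.608% of all genes, and a run of 4 units stood in 1 of them, against 0.0439%. The table held no window for HSF1. The longest run of each of the 7 genes is shown, because it is the element the response is known for, with its flanks on the gene's strand. Where the longest runs of a gene were equally long, the first is shown. Capitals mark the whole run, which is the units and the letters between them.
HSPA1A, chr6:31815427-31815454, plus strand: gaaaaccctgGAATATTCccgacctggc
HSPA1B, chr6:31827623-31827650, plus strand: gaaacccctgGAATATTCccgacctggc
HSPA8, chr11:123062346-123062374, minus strand: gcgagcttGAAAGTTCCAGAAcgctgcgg
HSP90AA1, chr14:102087112-102087140, minus strand: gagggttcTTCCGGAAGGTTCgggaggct
DNAJB1, chr19:14518457-14518484, minus strand: gggcggggcgGAAGGTTCtggagggggc
HSPB1, chr7:76302481-76302508, plus strand: cttaacgagaGAAGGTTCcagatgaggg
HSPD1, chr2:197500062-197500090, minus strand: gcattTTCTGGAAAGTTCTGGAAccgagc

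The runs of HSPA1A and HSPA1B end at positions -99 and -98 from the start site, and their printed stretches differ at 1 of 28 bases. HSPA8 held a second run of 3 units that ends at position -43, nearer to the start than the one shown. HSP90AA1 and DNAJB1 each held another run of 2 units in the same window. Window 3 of DNAJB1 held a further run of 2 units, at 1 to 8 from its start site. In GENCODE release 29, the runs of HSPA1A, HSPA1B and HSPB1 lie outside the gene on its 5′ side. The DNAJB1 run shown falls in an intron of a longer transcript, and those shown for HSPA8, HSP90AA1 and HSPD1 each fall in an exon of 1 longer transcript. The windows of HSPH1 and BAG3 held no such run, which says only that these letters are not in the window. A match to the letters is a description and not a measured binding site.

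**Figure D1:**
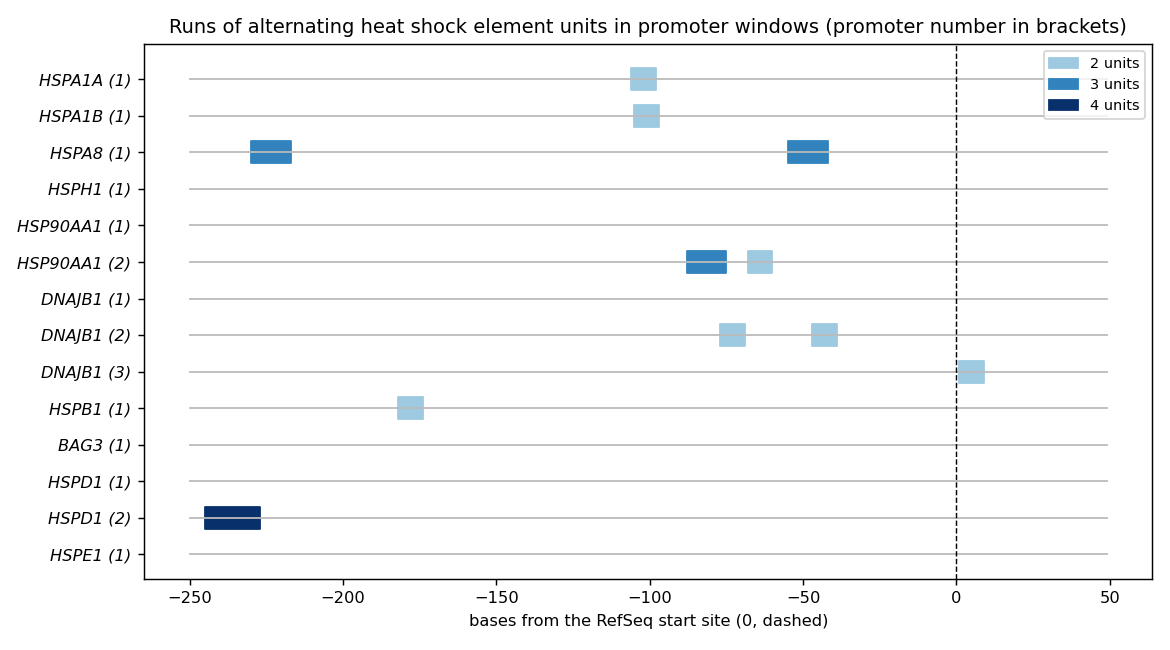
Runs of alternating heat shock element units in each RefSeq promoter window of 9 members and of HSPE1, plotted by distance in bases from the start site (0, dashed line) and coloured by the number of units. The number in brackets tells apart the windows of one gene. HSPD1 holds the run of 4 units, at -245 to -228 from the start of its window 2, and the windows of HSPH1, BAG3 and HSPE1 hold none.

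Libraries held 24153785 to 30454419 reads assigned to genes. The target of the siRNAs checked the labels. SLC39A7 was at 321, 343 and 322 CPM (read count relative to the TMM-scaled library size) in the siNC libraries, at 35.4, 32.9 and 38.6 CPM with siZIP7_1, and at 20.5, 19.5 and 17.6 CPM with siZIP7_2. Thus 10.9% and 5.84% of the siNC level remained. Markers of the line were present in every library (VIM, CD44, AXL, CAV1 and MSN, lowest library 168 CPM). Their levels moved with the siRNAs, VIM from a mean of 5529 CPM with siNC to 2687 and 2896, CD44 from 816 to 465 and 1793, AXL from 1911 to 1738 and 1005, CAV1 from 484 to 404 and 181, and MSN from 1006 to 1228 and 2092 CPM. ESR1, PGR and CDH1, which this line lacks or barely expresses, reached at most 4.52 CPM and EPCAM 10.3 CPM, but CDH1 went from 0.466 to 4.18 and 0.998 CPM and EPCAM from 6.57 to 9.68 and 4.42 CPM. PTPRC of leukocytes stayed at or under 1.02 CPM, ALB of hepatocytes at 2 counts or fewer and KRT20 of gut epithelium at 0 counts. Reads assigned to no gene made up 7.43% to 8.28% of the siNC libraries, 7.80% to 9.62% of the siZIP7_1 libraries and 9.995% to 11.5% of the siZIP7_2 libraries. Mitochondrially encoded genes took 2.26% to 2.65%, 2.66% to 2.81% and 3.27% to 3.88% of the reads, so both shares were highest in all siZIP7_2 libraries. The part of these shares and of the shifts in the markers in the results below was not tested.

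In the siNC cells HSPA8 and HSP90AA1 stood above the other genes whose levels can be ordered. HSPA1A and HSPA1B are given no place in this order. Of their 50-base windows, 72.6% and 73.5% also occur in another gene, and reads with several alignments were absent from the counts, so their values of 6.12 ± 0.222 and 20.1 ± 1.41 CPM per kb (SD, n = 3) are too low by an unknown amount. In the other 8 genes such windows made up at most 25% (HSPD1), which lowers their levels less. Scaled by exonic length, HSPA8 had the highest of these 8 levels at 313 ± 10.4 CPM per kb (SD, n = 3), followed by HSP90AA1 at 251 ± 2.26 and HSPD1 at 79.3 ± 0.961. BAG3 at 60.8, DNAJB1 at 56.5, HSPB1 at 49.7, HSF1 at 35.0 and HSPH1 at 26.3 CPM per kb came next. No neighbours among these 8 had overlapping libraries at this scaling. Exonic length here joins the exons of all transcripts of a gene, 5307 bases for HSF1 and 2747 for BAG3. Their longest coding transcripts hold 2142 and 2571 bases, so the order of the lower genes in each group depends on the length used. With siZIP7_1 the order was headed by HSP90AA1 at 238 and HSPA8 at 209 CPM per kb, whose libraries overlapped, as did those of DNAJB1 and HSPH1. With siZIP7_2, HSPA8 led at 266 CPM per kb, DNAJB1 took the third place at 85.5 and HSPD1 had moved to the seventh place at 35.6. There HSPH1 overlapped HSPB1.

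The heat shock genes did not move in a single direction with either siRNA. With siZIP7_1, HSPA1A and HSPA1B were called higher, and HSPA8, DNAJB1, HSPB1 and HSPD1 lower, at an adjusted p under 0.05. These were 2 and 4 of the 10 genes, where 34.8% of all genes tested were called higher and 35.9% lower. With siZIP7_2, HSPA1A, HSPA1B, HSPH1, DNAJB1 and BAG3 were called higher, and HSF1, HSPA8, HSP90AA1 and HSPD1 lower, or 5 and 4 of the 10, where the background was 38.5% higher and 39.3% lower. The counts are near what the background gives for any 10 genes and are no result about the set as such. The libraries of siZIP7_1 and siNC did not overlap for 8 of the 10 genes, where the same held for 72.1% of all genes tested, and those of siZIP7_2 and siNC for 9, beside 78.7%. These counts too are near the background. Called with both siRNAs were 2 of the 10 genes as higher, 2 as lower and 1 in opposite directions. Of all genes tested, 17.7%, 20.8% and 18.7% were so called, so these patterns are not particular to the set. The median log2 fold change of the 10 genes was -0.07 with siZIP7_1 and 0.17 with siZIP7_2, beside -0.01 and -0.0018 over all genes, and their median absolute change was 0.32 and 0.66 beside 0.48 and 0.58. Both comparisons use the same siNC libraries. Because RNA was pooled over all cells of a culture, a change in every cell and a change in the share of cells cannot be told apart.

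**Figure D2:**
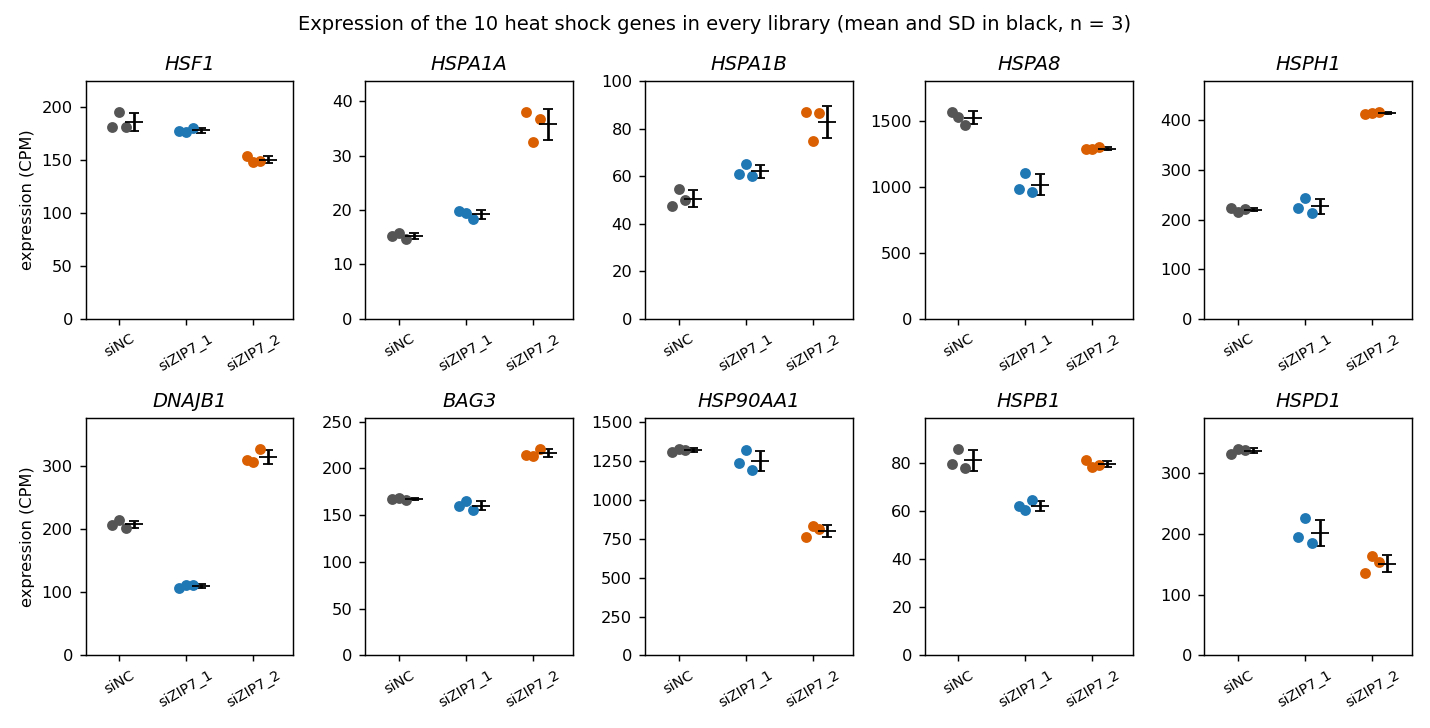
Expression in CPM (vertical axis, from 0) of the 10 heat shock genes in each of the 9 libraries, with the mean and SD of each group in black (n = 3). The siZIP7_2 libraries lie above the siNC libraries for HSPA1A, HSPA1B, HSPH1, DNAJB1 and BAG3, and those of DNAJB1 with siZIP7_1 lie below 112 CPM, under every other library.

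HSF1 (ENSG00000185122, on chromosome 8) was at 181.5, 195 and 181.1 CPM in the siNC libraries, at 177, 176 and 180.6 CPM with siZIP7_1, and at 154, 148 and 149 CPM with siZIP7_2. The siZIP7_2 libraries were the low ones, and the siZIP7_1 libraries lay just under the siNC range. By edgeR, HSF1 had a log2 fold change of -0.06 under siZIP7_1 (SE 0.0455, 95% interval -0.16 to 0.03, adjusted p = 0.22) and of -0.31 under siZIP7_2 (SE 0.0458, adjusted p = 7.35e-07). The second corresponds to 80.9% of the siNC level, and with upper-quartile scaling it was -0.20, still called (adjusted p = 0.000231). Of the other heat shock factors, HSF2, which is known for development and for joint trimers with HSF1, was called higher with siZIP7_1 (log2 fold change 0.18) and lower with siZIP7_2 (-0.22). HSF4, known from the lens, was called lower with siZIP7_2 alone (-0.34), and HSBP1, a negative regulator of HSF1, passed in neither comparison (-0.07 and 0.02). HSF5 did not pass the low-count filter. The list therefore had 1 gene of 4 called higher with siZIP7_1, and 3 of 4 called lower with siZIP7_2. This count and those of the other lists stand against the same shares of all genes as given above.

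HSPA1A and HSPA1B encode nearly the same HSP70, the chaperone that classically marks the heat shock response, and they rose with each siRNA. HSPA1A (ENSG00000204389, chr6:31815464-31817946, plus strand) was at 15.2, 15.8 and 14.7 CPM with siNC. It was at 19.9, 19.4 and 18.3 CPM with siZIP7_1, and at 38.0, 32.5 and 36.8 CPM with siZIP7_2. The groups did not overlap and were ordered siNC, siZIP7_1, siZIP7_2. In edgeR the log2 fold change of HSPA1A came to 0.34 for siZIP7_1 (SE 0.0744, adjusted p = 0.000204) and 1.23 for siZIP7_2 (SE 0.0708, adjusted p = 1.65e-15), that is 1.26-fold and 2.35-fold. The change with siZIP7_2 was the highest among the 10 genes and stood at the 86.9th percentile of the log2 fold changes of all genes tested.

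HSPA1B (ENSG00000204388, chr6:31827735-31830255, plus strand) was at 47.5, 54.5 and 49.8 CPM with siNC, at 60.9, 65.3 and 59.9 CPM with siZIP7_1, and at 87.1, 75.0 and 86.7 CPM with siZIP7_2. It showed the same order of groups with no overlap, with log2 fold changes of 0.30 (SE 0.0613, adjusted p = 0.0001, edgeR) and 0.71 (SE 0.0607, adjusted p = 1.2e-11). The neighbours are hard to tell apart in short reads. Of the 50-base windows in the longest coding transcript of HSPA1A, 72.6% also occur in HSPA1B, and reads with several alignments were absent from the counts, so the counts come from the remaining bases and can be split between the genes. In addition, 36.5% of the exonic length of HSPA1B is overlapped by the annotated gene AL671762.1 on the same strand. When the counts of both genes were added together, edgeR gave 0.30 log2 units for siZIP7_1 (adjusted p = 3.24e-05) and 0.85 for siZIP7_2 (adjusted p = 6.75e-14).

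HSPA8, the constitutive HSC70 that serves folding, clathrin uncoating and chaperone-mediated autophagy, fell with each siRNA, against the direction of HSPA1A and HSPA1B. HSPA8 (ENSG00000109971, chr11:123057489-123063230, minus strand) was at 1564, 1530 and 1465 CPM with siNC, at 983, 1105 and 956 CPM with siZIP7_1, and at 1283, 1281 and 1300 CPM with siZIP7_2. The siZIP7_1 libraries were the lowest and no groups overlapped. HSPA8 changed by -0.58 log2 units under siZIP7_1 (SE 0.0519, adjusted p = 4.11e-11, edgeR) and by -0.24 under siZIP7_2 (SE 0.0517, adjusted p = 0.000143), which left 66.8% and 84.8% of the siNC level. With upper-quartile scaling the second value was -0.13, still called (adjusted p = 0.0131). The summed level of the 10 genes was 4038 to 4148 CPM in the siNC libraries, 3136 to 3493 CPM with siZIP7_1 and 3474 to 3582 CPM with siZIP7_2. Other genes share 15.4% of the 50-base windows of HSPA8.

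HSPH1 encodes HSP105, a member of the HSP110 family that exchanges nucleotide on HSP70 and helps it take apart aggregates. It (ENSG00000120694, chr13:31134974-31162388, minus strand) was at 223, 216 and 222 CPM with siNC, at 224, 244 and 213 CPM with siZIP7_1, and at 412, 415 and 417 CPM with siZIP7_2. The siZIP7_1 libraries spanned the siNC libraries, while all siZIP7_2 libraries were far above both. Its log2 fold change in edgeR was 0.04 under siZIP7_1 (95% interval -0.06 to 0.14, adjusted p = 0.438) and 0.91 under siZIP7_2 (SE 0.0484, adjusted p = 2.76e-16), the second being 1.88-fold. The first value turned to -0.01 without siZIP7_1 replicate 2. None of its 50-base windows occurs in another gene.

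In the list of cytosolic HSP70 and HSP110 genes, which holds these 4 members, 6 of 10 genes were called higher and 3 lower with siZIP7_1, and likewise 6 and 3 with siZIP7_2. HSPA2, an HSP70 best known from spermatogenic cells, rose from 2.43 ± 0.194 CPM (SD, n = 3) with siNC to 4.63 ± 0.477 with siZIP7_1 and 3.48 ± 0.49 with siZIP7_2. HSPA1L, a further HSP70 gene beside HSPA1A, rose from 1.97 to 2.89 and 2.58 CPM. HSPA6, the strictly stress-inducible HSP70B′, was picked here after its values were seen. It fell with siZIP7_1 (4.26 to 2.69 CPM, log2 fold change -0.65, adjusted p = 0.00102) and rose with siZIP7_2 (10.2 CPM, log2 fold change 1.26, adjusted p = 2.26e-09). The HSP70 genes differed in which siRNA gave the higher level, HSPA2 being lower with siZIP7_2 than with siZIP7_1 (adjusted p = 0.00789, edgeR) and HSPA6 higher (adjusted p = 9.15e-13).

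DNAJB1, or HSP40, is the J-domain partner that delivers substrates to HSP70 and also restrains HSF1, and it moved in opposite directions with the siRNAs. DNAJB1 (ENSG00000132002, chr19:14514770-14529770, minus strand) was at 207, 214 and 202 CPM with siNC, at 106, 112 and 111 CPM with siZIP7_1, and at 309, 306 and 327 CPM with siZIP7_2. The libraries formed 3 bands with wide gaps, siZIP7_1 lowest and siZIP7_2 highest. DNAJB1 changed by -0.92 log2 units under siZIP7_1 (SE 0.0471, adjusted p = 1.35e-16, edgeR) and by 0.60 under siZIP7_2 (SE 0.0458, adjusted p = 1.2e-12). The siZIP7_1 level was 52.8% of that in siNC and the siZIP7_2 level 151%. Among the cytosolic J-domain genes, 4 of 11 were called higher and 4 lower with siZIP7_1, and 7 higher and 1 lower with siZIP7_2. DNAJB6, a strong suppressor of polyglutamine aggregation, went from 234 ± 6.97 CPM (SD, n = 3) to 283 ± 11 and 513 ± 29.8 CPM. DNAJB2, which sorts clients to the proteasome, went from 45.8 to 59.6 and 109 CPM, and DNAJC9, a histone co-chaperone, fell from 95.5 to 72.6 and 63.9 CPM.

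BAG3 exchanges nucleotide on HSP70 and links it to small heat shock proteins and to autophagy. It (ENSG00000151929, chr10:119651370-119677819, plus strand) was at 167, 168 and 166 CPM with siNC, at 159, 165 and 156 CPM with siZIP7_1, and at 214, 213 and 221 CPM with siZIP7_2. The siZIP7_1 libraries lay below the siNC libraries by a narrow gap and the siZIP7_2 libraries above them by a wide one. The edgeR estimate was -0.06 log2 units for siZIP7_1 (95% interval -0.15 to 0.03, adjusted p = 0.215) and 0.37 for siZIP7_2 (SE 0.0443, adjusted p = 1.27e-08). BAG3 rose with siZIP7_2 while BAG2, an inhibitor of the ubiquitin ligase CHIP, fell from 88.4 CPM with siNC to 55.0 and 48.8 CPM, and HSPBP1, another exchange factor, from 74.9 to 57.4 and 38.6 CPM. Of the 7 genes of this list, none was called higher and 5 lower with siZIP7_1, and 3 were called higher and 4 lower with siZIP7_2.

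HSP90AA1, the stress-inducible cytosolic HSP90 that matures kinases and steroid receptors, fell with siZIP7_2. HSP90AA1 (ENSG00000080824, chr14:102080738-102139699, minus strand) was at 1306, 1329 and 1322 CPM with siNC, at 1236, 1320 and 1191 CPM with siZIP7_1, and at 760.3, 831 and 811 CPM with siZIP7_2. Replicate 2 of siZIP7_1 lay within the siNC range and the others below it, while all siZIP7_2 libraries were far lower. In edgeR its log2 fold change was -0.08 under siZIP7_1 (95% interval -0.18 to 0.02, adjusted p = 0.157) and -0.72 under siZIP7_2 (SE 0.0497, adjusted p = 1.13e-13), the latter leaving 60.7% of the siNC level. Without siZIP7_1 replicate 2, the first value was -0.12 with an adjusted p of 0.0394, so this library decides that call. That replicate also had the lowest share of reads assigned to no gene in its group (7.80%, against 9.42% and 9.62%). Other genes share 21.4% of its 50-base windows.

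HSP90 and its co-chaperones split in both comparisons, with 6 of 16 genes called higher and 7 lower with siZIP7_1, and 4 higher and 9 lower with siZIP7_2. FKBP5, the immunophilin that slows steroid receptor maturation, fell from 69.0 CPM with siNC to 27.2 with siZIP7_1 and 45.6 with siZIP7_2. UNC45A, a myosin co-chaperone, rose from 139 to 195 and 171 CPM. AHSA2P, annotated as a pseudogene related to the HSP90 activator AHSA1, rose from 32.0 to 38.4 and 57.2 CPM, and TTC4, a further co-chaperone, fell from 1.58 to 0.77 and 0.916 CPM. The read-through gene MROH7-TTC4 overlaps 52.4% of the exonic length of TTC4.

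HSPB1, or HSP27, holds unfolded chains in large oligomers without using ATP. It (ENSG00000106211, chr7:76302544-76304295, plus strand) was at 79.6, 86.05 and 78.0 CPM with siNC, at 62.1, 60.5 and 64.6 CPM with siZIP7_1, and at 81.2, 78.6 and 79.3 CPM with siZIP7_2. The siZIP7_1 libraries were the low ones, and the siZIP7_2 libraries lay within the siNC range. HSPB1 had a log2 fold change of -0.38 under siZIP7_1 (SE 0.0506, adjusted p = 1.17e-07, edgeR) and of -0.03 under siZIP7_2 (95% interval -0.13 to 0.08, adjusted p = 0.629), and the sign of the second changed with the scaling and without siNC replicate 2. Only 3 of 9 small heat shock proteins passed the low-count filter. HSPB8, which works with BAG3 in the autophagy of misfolded proteins, was at 2.05 ± 0.0881 CPM (SD, n = 3) with siNC, 2.80 ± 0.132 with siZIP7_1 and 17.6 ± 1.27 with siZIP7_2. Its log2 fold changes were 0.45 (adjusted p = 0.00762) and 3.09 (adjusted p = 3.14e-20), the second larger than that of any of the 10 heat shock genes. HSPB6, a small heat shock protein of muscle, passed in neither comparison at 0.704, 0.574 and 0.475 CPM.

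HSPD1, the HSP60 chaperonin of mitochondria, had the largest fall of the 10 genes with siZIP7_2. HSPD1 (ENSG00000144381, chr2:197486581-197516737, minus strand) was at 332, 340 and 338 CPM with siNC, at 195, 226 and 185 CPM with siZIP7_1, and at 135, 164 and 154 CPM with siZIP7_2. All libraries of both siRNAs were below all siNC libraries, and those of siZIP7_2 were the lowest. HSPD1 changed by -0.74 log2 units under siZIP7_1 (SE 0.0614, adjusted p = 9.69e-12, edgeR) and by -1.16 under siZIP7_2 (SE 0.0624, adjusted p = 3.98e-16), which left 60.0% and 44.9% of the siNC level. Other genes share 25% of its 50-base windows. HSPE1, the HSP10 lid of the same chaperonin, is transcribed away from HSPD1 from a shared promoter region. It was at 15.6, 19.9 and 17.1 CPM with siNC, at 12.8, 12.8 and 13.1 CPM with siZIP7_1, and at 7.375, 6.32 and 7.77 CPM with siZIP7_2, again with no overlap. Its log2 fold changes were -0.44 (adjusted p = 5.98e-05) and -1.29 (adjusted p = 5.59e-13), and 23.9% of its exonic length is overlapped by other genes, HSPE1-MOB4 among them. Overlaps of 20% or more also concern AHSA2P (35.9%), BAG2 (44.2%), DNAJC9 (29.1%), HSF4 (31.4%), HSPB6 (38.2%), UBB (28.4%) and UNC45A (20%). Among list genes without printed values, they concern STUB1 (42.4%), DDIT3 (39.6%), HTRA2 (36.9%), PFDN6 (34.9%), CCT5 (30.1%), TRAP1 (29.3%), PDIA6 (25.2%), DNAJB11 (23.2%) and HSCB (20.6%). The counts of all these genes are less certain, in part because the strand setting is not given in the sources used here. Where the other gene lies on the same strand, as HSPE1-MOB4 does for HSPE1, reads on shared bases stay ambiguous at any setting.

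**Figure D3:**
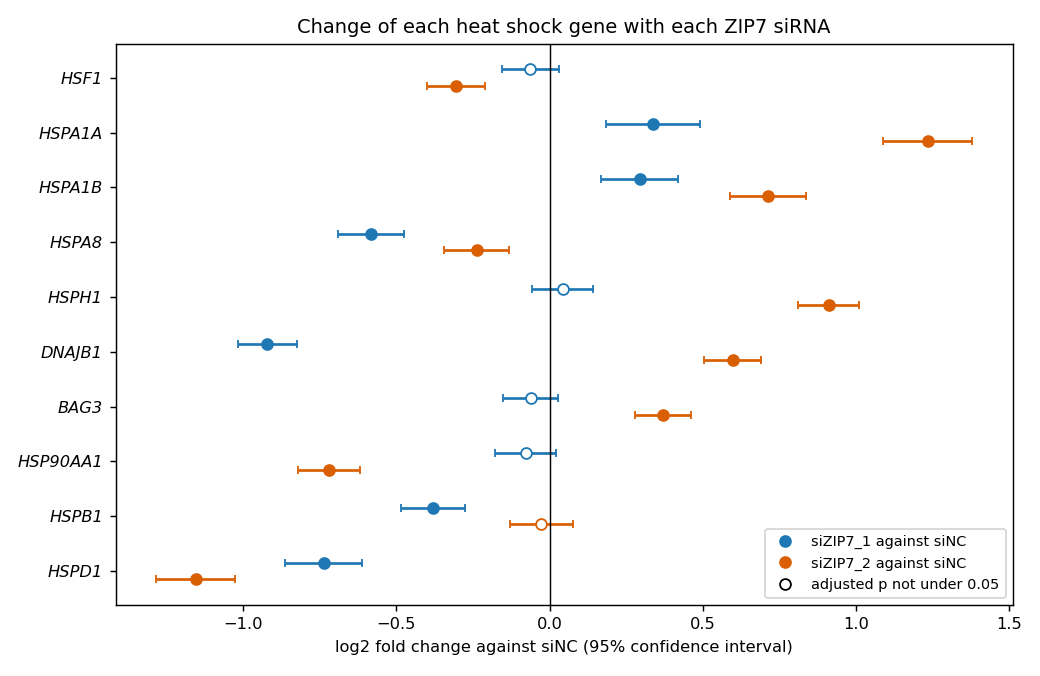
Log2 fold change against siNC (horizontal axis) of each of the 10 heat shock genes with each siRNA, with 95% confidence intervals from edgeR. Open circles mark an adjusted p not under 0.05, which are 4 genes with siZIP7_1 and HSPB1 with siZIP7_2, and DNAJB1 has filled circles on opposite sides of 0.

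Each of the 10 genes differed between the siRNAs themselves. In the direct comparison of siZIP7_2 with siZIP7_1, 7 genes were called higher and 3 lower where 38.1% of all genes were called higher and 40.6% lower. The libraries did not overlap for any of the 10 genes, nor for 79.7% of all genes tested, so separation of the groups is not particular to the heat shock genes. The difference was largest for DNAJB1, 2.87-fold higher with siZIP7_2 (log2 difference 1.52, 95% interval 1.42 to 1.62, adjusted p = 5.57e-22). HSPA1A was 1.86-fold and HSPH1 1.83-fold higher with siZIP7_2. With the counts of HSPA1A and HSPA1B added together, the log2 difference was 0.55 (adjusted p = 6.21e-10), beside 0.90 for HSPA1A alone. BAG3, HSPA1B, HSPB1 and HSPA8 were 1.35-fold, 1.34-fold, 1.28-fold and 1.27-fold higher. HSP90AA1 was the most reduced, at 64.1% of its siZIP7_1 level, followed by HSPD1 at 74.8% and HSF1 at 84.5%. SLC39A7 was also lower with siZIP7_2, at 53.8% of the siZIP7_1 level, and the depth of the knockdown and the sequence of the siRNA cannot be told apart in this comparison.

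Genes with a promoter run were called in both directions. Of the 7 genes with a run in a window, 2 were called higher, 4 lower and 1 not called with siZIP7_1. With siZIP7_2, 3 were called higher, 3 lower and 1 not called. Of all genes tested, 34.8% were called higher and 35.9% lower with siZIP7_1, and 38.5% and 39.3% with siZIP7_2. HSPH1 and BAG3, without a run in the window, were not called with siZIP7_1 and were both called higher with siZIP7_2. Only these 2 genes lacked a run, so the counts cannot show whether a run goes with a direction. HSPD1, whose window 2 held the longest run and whose window 1 held none, fell with each siRNA.

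A wider list of genes known as stress-inducible HSF1 targets, which holds 9 of the 10 members, was split as well. Of its 26 genes tested, 6 were called higher and 14 lower with siZIP7_1, and 10 higher and 10 lower with siZIP7_2. Their median log2 fold change was -0.15 and -0.03. Among its other genes, SERPINH1, the collagen chaperone HSP47, fell from 250 ± 12.8 CPM (SD, n = 3) with siNC to 183 ± 1.14 with siZIP7_1 and 146 ± 5.29 with siZIP7_2. UBB, which encodes ubiquitin, rose little, from 490 to 543 and 541 CPM (log2 fold changes 0.15 and 0.14). At least 2 heat shock element units stood in the windows of 17 of the 24 list genes that had one.

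The chaperonin TRiC and prefoldin, which fold actin and tubulin and contain none of the 10 genes, were mostly lower. With siZIP7_1, 1 of 14 genes was called higher and 9 lower, and with siZIP7_2, 1 higher and 13 lower, with median log2 fold changes of -0.20 and -0.66. The prefoldin subunits VBP1 and PFDN4 fell most over both siRNAs, VBP1 from 86.9 ± 5.8 CPM (SD, n = 3) to 35.3 ± 2.64 and 57.1 ± 1.79 CPM, and PFDN4 from 35.4 to 18.3 and 21.7 CPM. PFDN1, a subunit of the same complex, was the gene that rose, from 102 to 111.5 and 125 CPM.

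Mitochondrial chaperones and proteases also went both ways, with 5 of 17 genes called higher and 11 lower with siZIP7_1, and 5 higher and 8 lower with siZIP7_2. DNAJA3, the mitochondrial partner of HSPA9, fell from 101 CPM with siNC to 71.7 and 34.8 CPM. DNAJC19, linked to the import motor of the inner membrane, fell from 14.9 to 7.09 and 5.66 CPM, and CLPX, the unfoldase of the matrix protease, rose from 49.9 to 75.6 and 64.4 CPM.

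ER chaperones and ER stress genes were mostly higher with each siRNA. Of 23 genes, 19 were called higher and 4 lower with siZIP7_1, and 17 higher and 4 lower with siZIP7_2, with median log2 fold changes of 0.54 and 0.42. DNAJB9, an ER J-domain protein that restrains the sensor IRE1, rose from 21.3 ± 1.86 CPM (SD, n = 3) with siNC to 42.5 ± 2.98 with siZIP7_1 and 76.8 ± 7.59 with siZIP7_2. HERPUD1, which takes part in ER-associated degradation, rose from 85.5 to 149 and 324 CPM. The transcription factors XBP1 and ATF4, which carry the signals of IRE1 and PERK, fell at the mRNA level. XBP1 went from 167 to 101 and 120 CPM and ATF4 from 294 to 255 and 186 CPM, and the activity of these factors was not measured. A run of at least 2 heat shock element units stood in the windows of 1 of 22 genes of this list. The difference between the ER list and the heat shock genes was not tested.

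**Figure D4:**
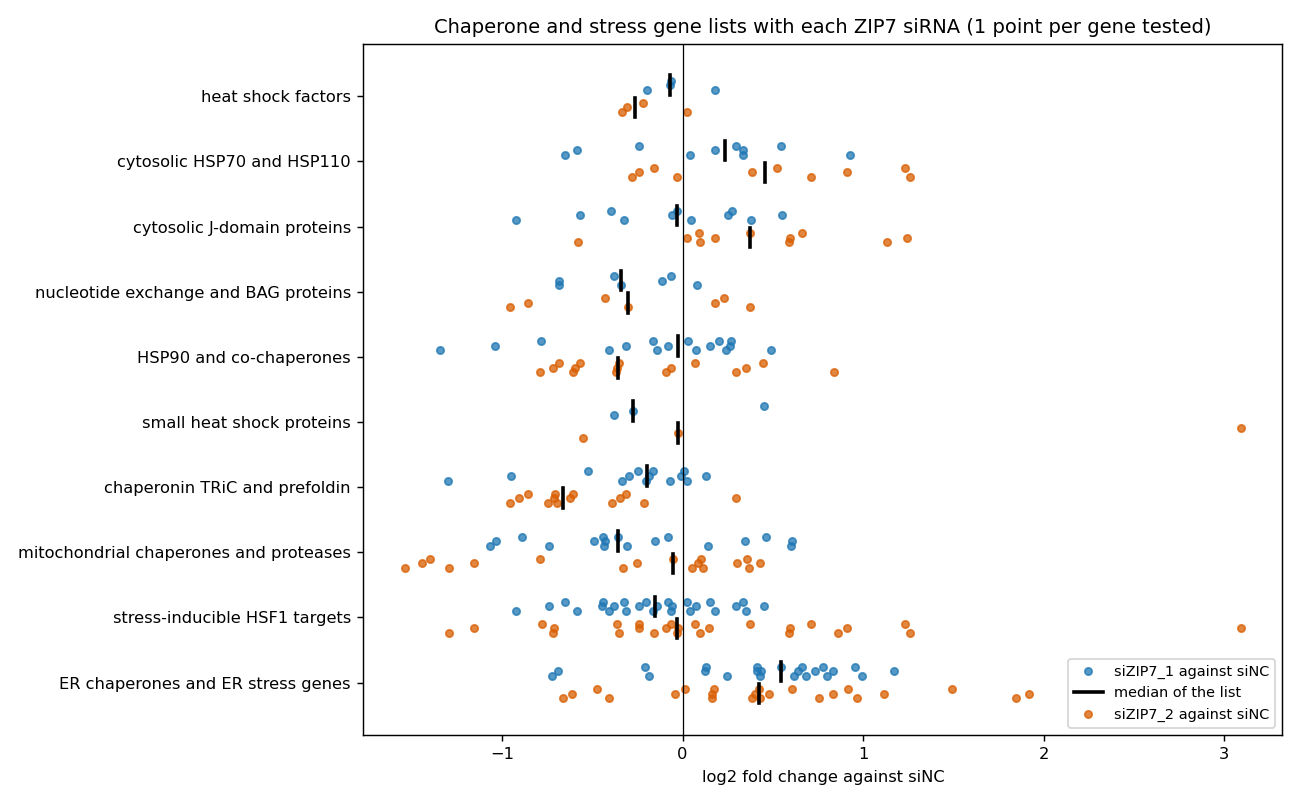
Log2 fold change against siNC (horizontal axis) of every gene tested in 10 lists of chaperone and stress genes, with 1 point per gene, the siRNAs in different colours and the median of each list as a black bar. The ER list lies mostly to the right of 0 (medians 0.54 and 0.42) and TRiC with prefoldin mostly to the left (medians -0.20 and -0.66), while the point at 3.09 is HSPB8, which belongs to both the small heat shock proteins and the HSF1 targets.

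Each member's pattern over the 9 libraries was set beside that of the 9738 genes averaging 10 CPM or more, by Pearson r of log2 CPM. HSPA1A was most like MSN, the membrane linker moesin (r = 0.996), then HIP1R and STARD10. HSPH1 was most like BCL10 (r = 0.997), PITPNC1 and TM2D3, and HSPA8 was most like AEN (r = 0.989), FAH and FUT8. HSPD1 was most like the nuclear export factor CSE1L (r = 0.999), PDS5B and SRSF1. Because the libraries fall into 3 groups, r mostly describes the order of 3 group means, and r was above 0.95 with 422 genes for HSPA1A, 514 for HSPH1, 327 for HSPA8 and 657 for HSPD1. These are descriptions over shared libraries.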

How the data were processed

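Total RNA was sequenced by the authors as single reads. The deposited values are raw counts of reads per Ensembl gene, not normalized. The submitters' processing notes name Trim Galore 0.4.1, FastQC 0.11.2, STAR, HTSeq 0.6.1 and DESeq2 1.16.1. The genome build, annotation, strand setting and read length are not given in the sources used here, so reads of overlapping genes may not be told apart. Summary lines of the counting program were left out, and these showed no reads with several alignments. GENCODE release 29 of GRCh38 matched 58275 of 58395 identifiers and gave symbols, places and exonic lengths. RefSeq windows of GRCh38.p14 gave the promoter sequences.

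The tests used edgeR 4.0.16 under R 4.3.3 (TMM scaling, the filterByExpr filter, glmQLFTest, Benjamini-Hochberg adjustment over all 16761 genes, threshold 0.05) in a single fit of 9 libraries in 3 groups, with 6 residual degrees of freedom. The spread of each gene was moderated toward that of the other genes, so p-values and intervals do not rest on its own libraries alone. SE is the log2 fold change divided by the square root of F. A count of 3 was 0.0941 to 0.129 CPM. Alternatives were DESeq2 1.42.0, other scalings and filters, a replicate block, a test against a 1.8-fold change, fits to the groups compared, addition of HSPA1A and HSPA1B, and each library left out. The fit was tested on simulated data with known changes in a small part of the genes and a common spread for all. Far more genes were called in the real data, so the simulation does not check the scaling there. Libraries of the same group differed beyond counting error, with a chi-square per gene of 2.49 to 6.54 in each pair, so none was taken for a repeat. The members, the lists and the tests were chosen with earlier results of these data known. Named list genes are the top and bottom 2 by mean log2 fold change among those past the threshold in 1 direction with both siRNAs.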

Additional observations from a re-analysis of the deposited data

Results flagged for a closer look

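The change from siNC differed between the siRNAs for each of the 10 genes, by the direct test of siZIP7_2 against siZIP7_1 in edgeR. In log2 units, siZIP7_2 minus siZIP7_1, the difference was 1.52 for DNAJB1, 0.90 for HSPA1A (adjusted p = 7.98e-13), 0.87 for HSPH1 (adjusted p = 6.06e-16), 0.43 for BAG3 (adjusted p = 5.24e-10) and 0.42 for HSPA1B (adjusted p = 2.72e-07). It was 0.35 for HSPB1 (adjusted p = 3.2e-07) and 0.34 for HSPA8 (adjusted p = 7.37e-07). It was -0.64 for HSP90AA1 (adjusted p = 1.3e-12), -0.42 for HSPD1 (adjusted p = 6.12e-07) and -0.24 for HSF1 (adjusted p = 2.25e-05). The libraries of the groups did not overlap for any of the 10, nor for 79.7% of all genes tested. Of all genes tested, 38.1% were called higher and 40.6% lower in this comparison.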

How the results depend on the processing

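Of 426 values under alternatives, 398 kept their direction and their side of the threshold. Tested against a change of 1.8-fold, 0 of the 10 genes were called higher and 0 lower with siZIP7_1 by edgeR's glmTreat, where the test against no change called 2 and 4, and 8.60% and 8.32% of all genes passed the 1.8-fold test. With siZIP7_2, 1 was higher (HSPA1A) and 1 lower (HSPD1), beside 14.0% and 10.7% of all genes. Between the siRNAs, 1 was higher (DNAJB1) and 0 lower, beside 15.2% and 13.0%. By its construction, this test left 22 single changes uncalled that the test against no change had called. HSPB1 with siZIP7_2 turned to 0.0052 with DESeq2's size factors, 0.0797 with upper-quartile scaling and 0.0475 when every library had to reach 10 counts, and ranged from -0.0506 to 0.0141 with each library left out, the sign turning without siNC replicate 2. HSPH1 with siZIP7_1 ranged from -0.0115 (without siZIP7_1 replicate 2) to 0.0881. HSF1 and HSPA8 with siZIP7_2 shrank to -0.20 and -0.13 with upper-quartile scaling and were still called. The cause was not tested. Upper-quartile scaling moved the median of all genes by 0.11 (log2) with siZIP7_2 and its split from 6450 higher and 6588 lower to 7256 and 5803. With each library left out in turn, the counts of the 10 genes with siZIP7_1 were 2 higher and 4 to 5 lower, and all others did not change. Libraries of the same number had correlations of -0.25 to 0.242 after group means were removed (9 pairs). For libraries of different numbers the range was -0.398 to 0.324 (18 pairs). So few libraries cannot show whether a number marks a shared culture or day. With the replicate block, the counts were 2 and 4, 5 and 4, and 7 and 3, the same as without it.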

Other observations

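Some chaperone genes that are not among the 10 followed DNAJB1 in moving in opposite directions with the siRNAs, and were picked after their values were seen. Such opposite calls are common, at 18.7% of all genes tested. CDC37, which loads kinases onto HSP90, was at 496 ± 11.7 CPM (SD, n = 3) with siNC, 288 ± 9.68 with siZIP7_1 and 634 ± 7.32 with siZIP7_2. BAG6, a holdase for tail-anchored and mislocalized proteins, was at 602 ± 14.3, 375 ± 7.18 and 681 ± 11.98 CPM (SD, n = 3), and HSPA9, the mitochondrial HSP70, at 613 ± 8.52, 455 ± 16.7 and 786 ± 30.2 CPM. All were called in both comparisons with siNC by edgeR. PPID, an immunophilin of the HSP90 cycle, had the reverse order, at 51.6 ± 0.514, 59.3 ± 3.92 and 32.05 ± 0.909 CPM (SD, n = 3). HSP90AB1, the constitutive cytosolic HSP90, fell from 1935 ± 45.1 CPM to 1459 ± 64.9 and 1502 ± 71.1 CPM, and its levels with the siRNAs did not pass the test against each other (log2 difference 0.04, 95% interval -0.06 to 0.14).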
